A study of Mus musculus with 232 samples.

Results

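The 10 genes described here belong to canonical Wnt signalling: Dkk1, Ctnnb1, Axin1, Axin2, Apc, Gsk3b, Tcf7, Tcf7l1, Lef1 and Sp5. They were listed by name, with no measured value in the rule, and Dkk1 is a reported target of the miR-290 family that includes miR-294. They were 10 of 42493 genes in the files, and all 10 were matched by gene identifier. Single mouse embryonic stem cells (ESCs) in 4 conditions were sequenced: Dgcr8-/- ESCs that were mock-transfected (60 cells), Dgcr8-/- ESCs given a miR-294 mimic (58 cells), Dgcr8-/- ESCs given a let-7 mimic (48 cells) and wild-type ESCs (WT, 16 cells of the V6.5 line). Dgcr8-/- ESCs lack the protein that with Drosha starts the processing of canonical miRNAs, so that a mimic adds a single miRNA family to cells without canonical miRNAs. Cells were captured 24 hours after transfection. The labels do not say whether the WT cells also received transfection reagent. All 4 conditions were grown with serum, LIF and the inhibitors PD0325901 and CHIR99021. The latter inhibits GSK3, the kinase of which Gsk3b encodes 1 form, and is known to activate the pathway downstream of the receptors. It was present in every condition, and the activity of the pathway was not measured. The submitters name the let-7 mimic in different places as let-7b, let-7c or let-7i, and it is called let-7 here.

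In the canonical Wnt pathway a secreted Wnt ligand binds a Frizzled receptor and an LRP co-receptor. Without ligand, β-catenin, the product of Ctnnb1, is phosphorylated by a destruction complex built on Axin1, Axin2, Apc and Gsk3b and is then degraded. With ligand, β-catenin accumulates and joins the DNA-binding proteins Tcf7, Tcf7l1, Tcf7l2 and Lef1 at target genes, among which are Axin2 and Sp5. Dkk1 is a secreted inhibitor that blocks the LRP co-receptor. In mouse ESCs, Tcf7l1 acts mainly as a repressor of pluripotency genes, and inhibition of GSK3 relieves that repression.

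The miRNA sequences are shown first because the seed, bases 2 to 8 from the 5′ end, sets which messages a miRNA can pair with. They were taken from RefSeq (GRCm38.p6), and capitals mark the seed. The 3 let-7 members share 1 seed, so the uncertainty about the member does not change which seed matches were searched.
mmu-miR-294-3p: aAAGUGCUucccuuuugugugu
mmu-let-7b-5p: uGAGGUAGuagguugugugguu
mmu-let-7c-5p: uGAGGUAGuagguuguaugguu
mmu-let-7i-5p: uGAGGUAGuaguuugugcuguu

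Sites were searched on the sense strand of the longest annotated 3′ UTR of each gene, as AGCACTT (7mer-m8), AGCACTTA (8mer) or GCACTTA (7mer-A1) for miR-294 and as CTACCTC, CTACCTCA or TACCTCA for let-7. A 7mer inside an 8mer was counted once, as the 8mer. Of the 10 genes, 4 held a miR-294 match and 1 held a let-7 match, each a single match. The 5 matches are shown with the bases around them, the matched bases in capitals.
Dkk1, miR-294: tcctcagtgtgGCACTTAcctgtaaatgc
Gsk3b, miR-294: cgggaaagaccAGCACTTActtgagtgcca
Tcf7, miR-294: cctataaccccAGCACTTgcgagatagag
Lef1, miR-294: gtaaaaagcccAGCACTTgaattgttctt
Tcf7l1, let-7: gagatatctctCTACCTCttctcttcctg

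The Dkk1 match was of the 7mer-A1 kind and began 217 bases after the stop codon (GRCm38 chr19:30546962-30546968, minus strand). The Gsk3b match was the only 8mer and lay 35 bases after the stop codon, in a 3′ UTR of 5515 bases (chr16:38240604-38240611, plus strand). The Tcf7 match was of the 7mer-m8 kind, 1416 bases after the stop codon (chr11:52252461-52252467, minus strand), and so was that of Lef1, 1009 bases after it (chr3:131224078-131224084, plus strand). The single let-7 match, a 7mer-m8, was in Tcf7l1, 353 bases after the stop codon (chr6:72627001-72627007, minus strand). Ctnnb1, Axin1, Axin2, Apc and Sp5 held neither match in this UTR. Among 10335 expressed genes with an annotated 3′ UTR, 21.5% held at least 1 miR-294 match and 17% at least 1 let-7 match, and the share grew with UTR length. Of genes with a UTR within 20% of the length of the Gsk3b UTR, 59.7% held a miR-294 match, whereas for Dkk1, Tcf7 and Lef1 the like shares were 18.7%, 21.4% and 18.5%. Of genes with a UTR as long as that of Tcf7l1, 11.1% held a let-7 match. A match is a description of letters and not a measured site. None of the 10 genes stood on the lists of miR-294 or let-7c targets by which the study had selected transfected cells.

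**Figure D1:**
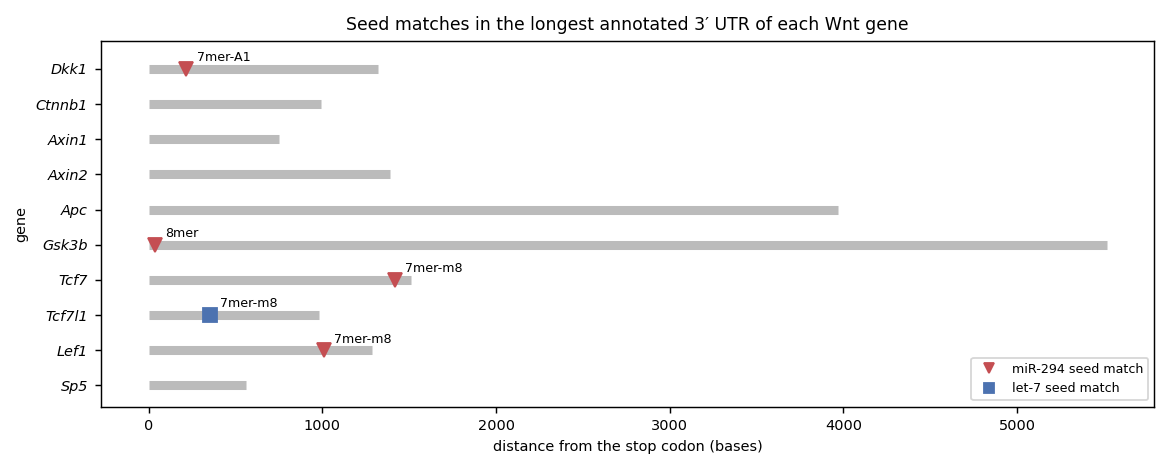
Grey bars give the longest annotated 3′ UTR of each Wnt gene, drawn from the stop codon (x axis, bases), with triangles for miR-294 seed matches and a square for the let-7 seed match. Dkk1, Gsk3b, Tcf7 and Lef1 carry a single miR-294 match each, and Tcf7l1 carries the let-7 match.

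Each cell held between 513521 and 3979274 assigned read counts (median 1521871), and the medians of the 4 conditions lay between 1307481 and 1574732. The study used 1 capture circuit per condition and the labels name no separate cultures, so the condition and the circuit cannot be told apart, cells are not replicates of a condition, and no test between conditions was made. Levels are therefore given as pooled values: counts summed over the cells of a condition and divided by their summed size factors, written as normalized counts per cell, with a 95% Poisson interval. These intervals cover counting error only, and reads are not independent molecules. Dgcr8 itself had a level of 155 in WT cells and of 52.5, 59.1 and 48.4 in mock, miR-294 and let-7 cells, lower in all 3 Dgcr8-/- conditions but not at 0, and the gene count does not show which exons the reads came from. All 9 ESC markers were counted in every condition. Their summed level per cell ranged from 3284 to 15295 in mock cells (median 9097), from 5031 to 16001 in miR-294 cells (median 8559), from 1473 to 12184 in let-7 cells (median 5487) and from 5695 to 11093 in WT cells (median 8017). Of 6 fibroblast markers 4 were at 0 in every cell, and the other two reached a summed level of at most 32.4 in any cell. The summed level of 10 differentiation markers had medians of 0 to 1.05, with a highest cell of 481 in mock, 201 in miR-294, 469 in let-7 and 203 in WT cells.

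A few libraries stood apart. In 4 pairs of consecutively numbered cells (LET_7I_82 and LET_7I_83, LET_7I_70 and LET_7I_71, LET_7I_10 and LET_7I_11, miRNA294_20 and miRNA294_21) the counts of both libraries agreed as closely as repeat runs of 1 cell do, with a chi-square per gene of 1.90 to 5.90 against 1.27 to 6.73 for 48 run pairs and at least 39.8 for all other pairs of cells. Conversely, the 2 runs labelled LET_7I_41 (chi-square per gene 111) and the 2 runs labelled V6.5_32 (201) differed as much as different cells do. V6.5_32 was 1 of only 2 WT cells with 2 runs, so every mock over WT value among cells with 2 runs rests partly on it. Values without these libraries are given where they mattered.

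By FPKM, which corrects for gene length, the 10 genes spanned a wide range in every condition. In mock cells the mean FPKM was 109 for Ctnnb1 (SD over cells 83.4, n = 60 cells) and 85.5 for Gsk3b (SD 46.1), followed by Tcf7l1 (29.4, SD 19.6), Apc (24.0, SD 28.9), Tcf7 (19.3, SD 32.5), Axin1 (9.995, SD 16.4), Lef1 (5.21, SD 19.1), Axin2 (2.23, SD 4.69), Dkk1 (0.708, SD 3.61) and Sp5 (0.526, SD 2.18). Neighbours in that order differed by less than the SD over cells of the higher gene, except Gsk3b and Tcf7l1. Ctnnb1 was 1st in all 4 conditions. Gsk3b was 2nd in the 3 Dgcr8-/- conditions and 3rd in WT cells, where Apc was 2nd by the mean and 3rd by the median. By the mean, Tcf7l1 was 3rd in mock and miR-294 cells (29.4 and 36.2), 4th in WT cells (13.9) and 8th in let-7 cells (4.49), and by the median it was 5th in let-7 cells. Sp5 was 10th in mock cells and 7th in let-7 cells by the mean, with a median of 0 in both.

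**Figure D2:**
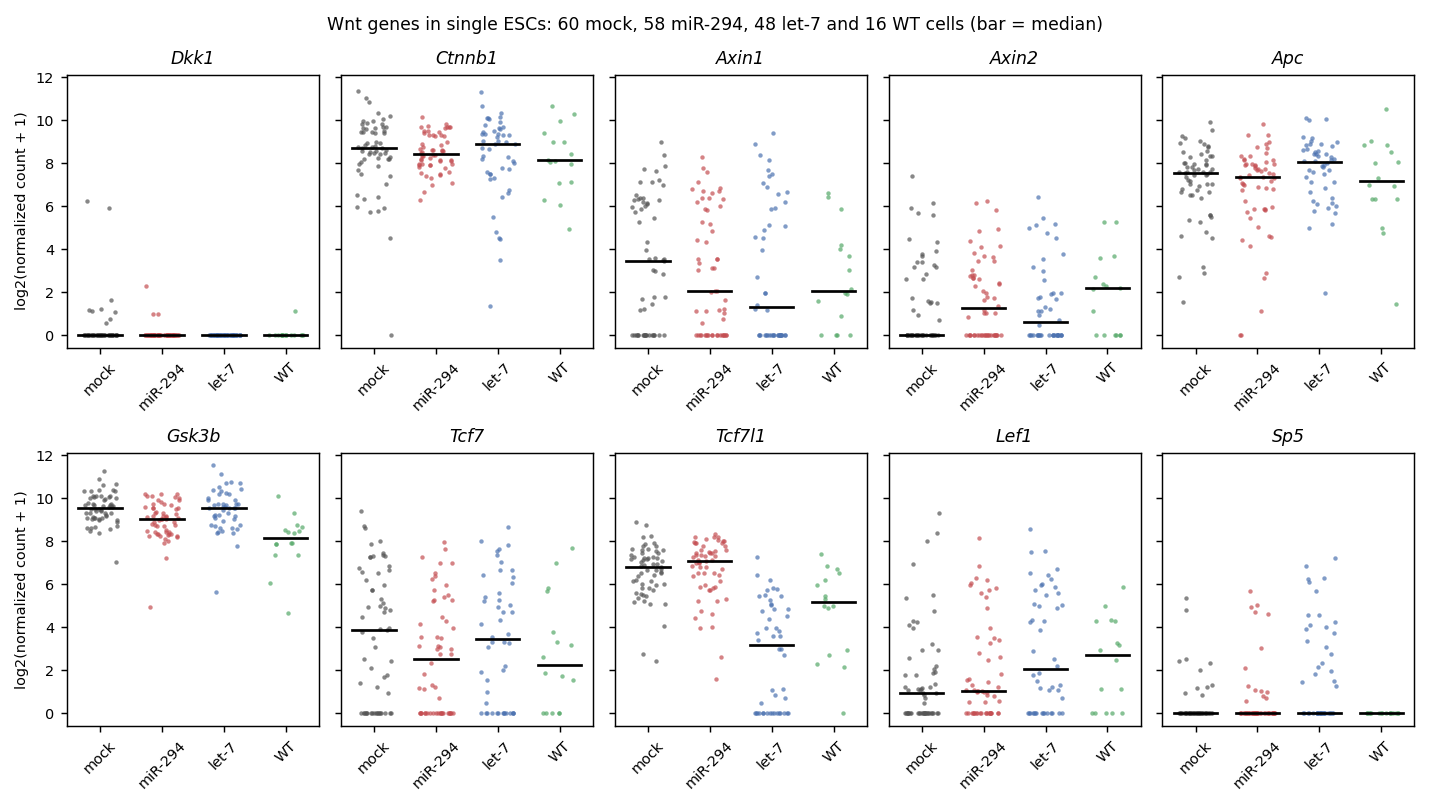
Each point is 1 cell, with log2(normalized count + 1) on the y axis and the 4 conditions on the x axis, and each bar is the median. Gsk3b and Ctnnb1 were counted in nearly every cell, Tcf7l1 sat lower in let-7 cells (median normalized count 8.26) than in mock cells (112), and Dkk1 was at 0 in most cells.

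The conditions were compared as miR-294 over mock, let-7 over mock and mock over WT cells. Each condition was 1 circuit, so an effect of a mimic or of miRNA loss cannot be told apart from the circuit. The 3 comparisons share the mock cells. A gene is called here when it differed by more than 2-fold and averaged 5 or more counts per cell over all conditions, which 11186 genes and 9 of the 10 members had, and Dkk1 did not. In miR-294 over mock cells 19.7% of the genes were lower and 6.22% were higher by this rule, against 1 lower (Tcf7) and 1 higher (Sp5) of the 9 members. In let-7 over mock cells 9.28% of the genes were lower and 18.8% higher, against 1 lower (Tcf7l1) and 2 higher (Lef1 and Sp5). Sp5 passed the filter only through let-7 cells (5.99 counts per cell over all conditions, 2.92 without let-7), so it had to be high there and its calls are not read as support. In mock over WT cells 9.85% of the genes were lower and 32% higher, against none lower and 5 higher (Axin1, Gsk3b, Tcf7, Tcf7l1 and Sp5). The median gene differed by -0.26, 0.19 and 0.36 on the log2 scale in the 3 comparisons, so ratios are read against those medians. Other scalings (TMM factors, CPM or counts scaled by the library total, and FPKM) moved those medians by at most 0.23.

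**Figure D3:**
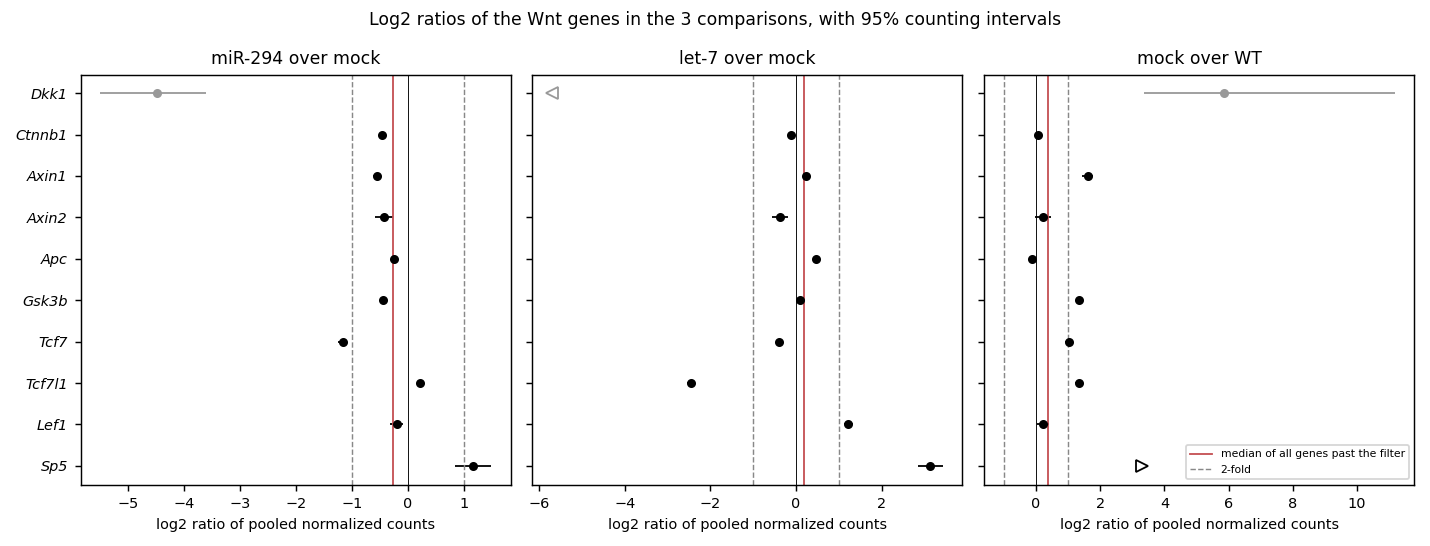
Log2 ratios of pooled normalized counts (x axis) for each Wnt gene in the 3 comparisons, with 95% counting intervals, dashed lines at 2-fold and a red line at the median of all genes past the filter. Grey symbols mark Dkk1, which missed the filter, and open triangles are bounds where a condition had no counts. Tcf7l1 in let-7 over mock cells (-2.45) is the only member past the filter that was past 2-fold lower there.

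Dkk1 (ENSMUSG00000024868, chr19:30545863-30549665, minus strand) encodes the secreted inhibitor. It was counted in 9 of 60 mock cells (15.0%, exact binomial 95% interval 7.10 to 26.6%), 3 of 58 miR-294 cells (5.17%, 1.08 to 14.4%), 0 of 48 let-7 cells, which allows a share of up to 6.25% (exact upper bound 7.40%), and 1 of 16 WT cells (6.25%, 0.158 to 30.2%). These intervals describe the sampling of cells within 1 circuit and do not compare conditions. The 221 counts in mock cells were not spread over the cells. Mock_55 held 174 of them (73.6 normalized counts) and Mock_39 held 35 (58.9), while the other 7 positive cells held 1 to 3 counts each. Of the 11 counts in miR-294 cells, miRNA294_29 held 9 (3.89 normalized counts). The highest miR-294 cell was thus far below the 2 highest mock cells and above the remaining mock cells.

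The pooled level of Dkk1 was 3.15 normalized counts per cell in mock (95% interval 2.75 to 3.59), 0.142 in miR-294 (0.0708 to 0.254), 0 in let-7 and 0.0540 in WT cells (0.00137 to 0.301). In miR-294 over mock cells the log2 ratio was -4.47 (-5.50 to -3.61). It was -2.29 without Mock_55 and -6.89 without miRNA294_29, so that single cells set its size. Among the cells with 1 run and those with 2 runs it was -4.65 and -4.28. In let-7 cells Dkk1 was at least 51.9-fold lower than in mock cells (at a floor of 3 counts over the condition), and at least 11.4-fold lower without Mock_55. The bound depends on the counts at hand: on the log2 scale it was -5.70 over all cells, -3.95 in cells with 1 run, -4.28 in cells with 2 runs and -3.82 after thinning. In mock over WT cells the ratio was 58.3-fold with a log2 interval of 3.37 to 11.18, since it rested on 1 count in WT cells, and it was 12.8-fold without Mock_55 and at least 18.5-fold without V6.5_39, the only positive WT cell. On the log2 scale it was 5.87 over all cells and 4.10 after thinning, 4.10 among cells with 1 run and 2.89 among cells with 2 runs, where no WT cell had a count. When every cell was thinned to 500000 counts, Dkk1 was counted in 4 mock, 2 miR-294, 0 let-7 and 1 WT cells. The difference in these shares was not tested.

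**Figure D4:**
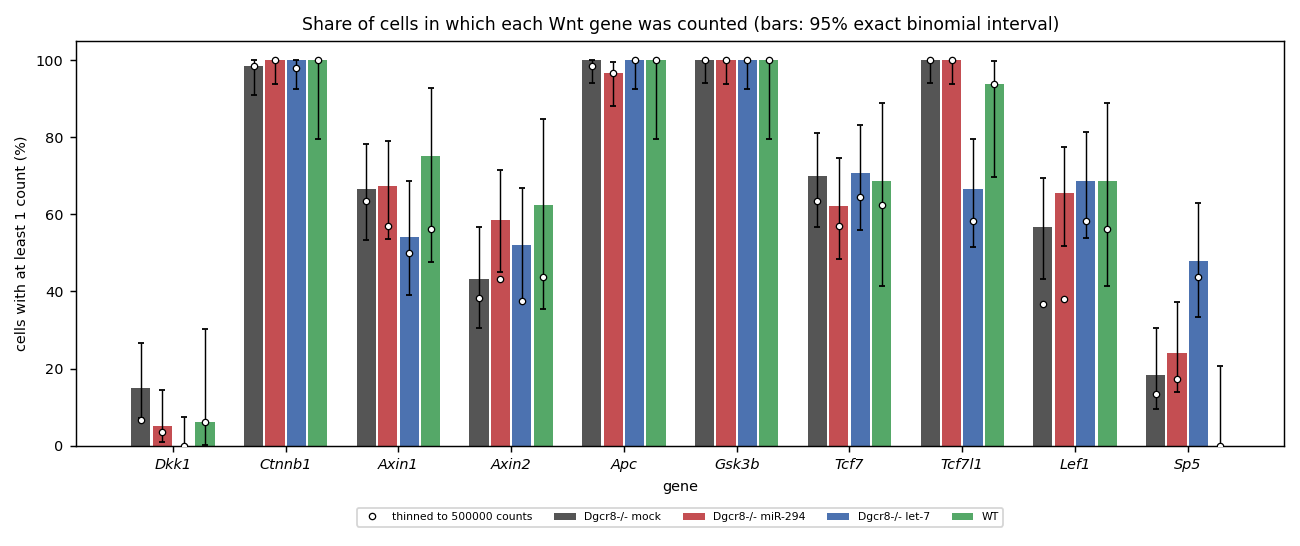
Share of cells with at least 1 count of each Wnt gene (y axis, percent) in the 4 conditions, with exact binomial 95% intervals, and circles for the share after thinning each cell to 500000 counts. Sp5 was counted in 47.9% of let-7 cells and 18.3% of mock cells, and Tcf7l1 in 66.7% of let-7 cells and all mock cells.

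Ctnnb1 (ENSMUSG00000006932, chr9:120929216-120960507), which encodes β-catenin, was counted in 59 of 60 mock cells and in all other cells. Per cell it ranged from 0 to 2605 normalized counts in mock (median 418), from 76.1 to 1142 in miR-294 (median 345), from 1.60 to 2496 in let-7 (median 478) and from 29.2 to 1597 in WT cells (median 277). The 4 ranges overlapped almost wholly. Summed over cells, Ctnnb1 had a level of 540 in mock, 393 in miR-294, 498 in let-7 and 518 in WT cells. No comparison came near 2-fold: the log2 ratios were -0.46 for miR-294 and -0.12 for let-7 over mock and 0.06 for mock over WT. The let-7 ratio was 0.04 among cells with 1 run and -0.57 among cells with 2 runs. The direction of mock over WT turned with TMM factors (-0.08), CPM (-0.11) and among cells with 2 runs (-0.69), and without V6.5_31 (-0.05), while it was 0.44 among cells with 1 run and 0.54 without V6.5_32.

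Gsk3b (ENSMUSG00000022812, chr16:38089001-38246084) encodes the kinase that phosphorylates β-catenin and was counted in every cell. It ranged from 130 to 2444 normalized counts in mock (median 752), from 30.3 to 1184 in miR-294 (median 528), from 49.3 to 2973 in let-7 (median 758) and from 24.4 to 1107 in WT cells (median 290). In mock cells 59 of 60 lay above the WT median, and 13 lay above the highest WT cell. The pooled level was 779 (773 to 786) in mock and 311 (303 to 319) in WT cells, a log2 ratio of 1.33 (1.29 to 1.37), or 0.97 above the median gene. This ratio was past 2-fold in each alternative (1.15 to 1.5) and was 1.41 and 1.29 among cells with 1 and with 2 runs. The latter rested on 2 WT cells, among them V6.5_32, whose runs differed. In miR-294 cells, where the message holds the 8mer shown above, the level of 571 gave a log2 ratio of -0.45 over mock, against a median of -0.71 for the 392 expressed genes with a miR-294 8mer and of -0.20 for 8105 genes without a match. In let-7 cells the level of 838 gave a log2 ratio of 0.11, and of -0.07 by FPKM.

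Axin1 (ENSMUSG00000024182, chr17:26138688-26195811), the main scaffold of the destruction complex, was counted in 40 of 60 mock, 39 of 58 miR-294, 26 of 48 let-7 and 12 of 16 WT cells. It ranged from 0 to 502 normalized counts in mock (median 10.1), to 309 in miR-294 (median 3.17), to 672 in let-7 (median 1.46) and to 97.0 in WT cells (median 3.18). Zeros and cells above 90 stood side by side in all 4 conditions. Pooled over cells, Axin1 was at 53.6 in mock and 17.6 in WT cells, a log2 ratio of 1.61 (1.44 to 1.77). It was 2.14 without the 2 cells whose runs differed, 2.12 among cells with 1 run and 0.77 among cells with 2 runs, of which there were only 2 in WT. The levels of 36.4 in miR-294 and 62.9 in let-7 cells gave log2 ratios of -0.56 and 0.23 over mock, the latter turning to -0.46 among cells with 2 runs and to -0.10 without LET_7I_18.

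Axin2 (ENSMUSG00000000142, chr11:108920349-108950783) is both a scaffold and a target of the pathway. Counts were seen in 26 of 60 mock, 34 of 58 miR-294, 25 of 48 let-7 and 10 of 16 WT cells. It ranged from 0 to 165 normalized counts in mock (median 0), to 74.2 in miR-294 (median 1.40), to 85.4 in let-7 (median 0.513) and to 37.2 in WT cells (median 3.51). The level of Axin2 was 9.45 in mock, 7.04 in miR-294, 7.30 in let-7 and 8.16 in WT cells, so the mock cells had the lowest share of positive cells and the highest pooled level. Mock_12 alone held 30.5% of the summed normalized counts. The log2 ratios of -0.42 (miR-294) and -0.37 (let-7) over mock and of 0.21 for mock over WT became 0.27, 0.33 and -0.49 without that cell and 0.24, 0.10 and -0.88 by FPKM, and no direction is read from Axin2.

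Apc (ENSMUSG00000005871, on chromosome 18), the large scaffold that brings β-catenin to the complex, was counted in all cells but 2. It ranged from 1.87 to 969 normalized counts in mock (median 186), from 0 to 905 in miR-294 (median 163), from 2.90 to 1083 in let-7 (median 265) and from 1.70 to 1450 in WT cells (median 142). Its levels were 221 in mock, 187 in miR-294, 308 in let-7 and 244 in WT cells. The log2 ratios were -0.24, 0.48 and -0.14 in the 3 comparisons, the first within 0.02 of the median gene, and all were within 2-fold. In mock over WT cells the ratio turned to 0.26 without V6.5_77 and was -0.45 among cells with 1 run and 1.47 among cells with 2 runs, which rested on the 2 such WT cells.

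Tcf7l1 (ENSMUSG00000055799, chr6:72626378-72789254), also known as Tcf3 in ESCs, was the member with the clearest separation. It was counted in all 60 mock and all 58 miR-294 cells, in 32 of 48 let-7 cells (66.7%, 51.6 to 79.6%) and in 15 of 16 WT cells. It ranged from 4.50 to 481 normalized counts in mock (median 112), from 2.03 to 319 in miR-294 (median 133), from 0 to 155 in let-7 (median 8.26) and from 0 to 167 in WT cells (median 35.1). Of the 48 let-7 cells, 47 lay below the mock median and 21 lay below the lowest mock cell, although the ranges overlapped. The pooled level was 119 (116 to 121) in mock and 21.7 (20.4 to 23.1) in let-7 cells, a 5.46-fold difference and a log2 ratio of -2.45 (-2.54 to -2.36). That placed Tcf7l1 at rank 195 from the lowest of 11185 genes. The ratio stayed between -2.72 and -2.04 in every alternative, with -2.69 and -2.04 among cells with 1 and with 2 runs, -2.40 with 1 cell of each alike pair, and -2.71 to -2.36 when each cell was left out in turn.

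The message of Tcf7l1 holds the let-7 7mer shown above. Over all 713 expressed genes with a let-7 7mer-m8 and no 8mer, the median log2 ratio of let-7 over mock was -0.02 and 18.5% were past 2-fold lower, against 0.21 and 7.84% of 8572 genes without a match. All 9 ESC markers also had a lower level in let-7 than in mock cells, and as a list they took 0.350% of the counts in let-7 cells against 0.604% in mock cells. Of the differentiation markers, Gata4 (16.2 against 2.62, counted in 7 let-7 cells and 1 mock cell) and Pax6 (6.57 against 0.826, counted in 17 and 18 cells) had a higher level in let-7 than in mock cells, while Mixl1 had a lower one (12.2 against 20.4). The study, with marker sets that largely overlap those used here, reported no significant change of any marker across conditions. The values here are pooled levels without a test. The part of these markers in the results for let-7 cells was not tested. In miR-294 cells the level of Tcf7l1 was 138, a log2 ratio of 0.22 over mock where the median gene was at -0.26. In mock over WT cells (119 against 47.4) the log2 ratio was 1.32 (1.22 to 1.43), 54 of 60 mock cells lay above the WT median and 15 above the highest WT cell, and every alternative stayed past 2-fold (1.08 to 1.48).

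Tcf7 (ENSMUSG00000000782, chr11:52252371-52283014, minus strand) encodes TCF1, which with β-catenin mostly activates targets. Tcf7 was counted in 42 of 60 mock, 36 of 58 miR-294, 34 of 48 let-7 and 11 of 16 WT cells. It ranged from 0 to 673 normalized counts in mock (median 13.9), to 248 in miR-294 (median 4.90), to 401 in let-7 (median 9.90) and to 209 in WT cells (median 3.89). The pooled level was 59.6 (57.8 to 61.5) in mock and 26.6 (25.4 to 27.7) in miR-294 cells, a log2 ratio of -1.17 (-1.24 to -1.09), or -0.91 relative to the median gene. It was -1.10 and -1.22 among cells with 1 and with 2 runs and fell inside 2-fold only with CPM (-0.97). For comparison, 26.9% of 1481 genes with a miR-294 7mer-m8 and no 8mer were past 2-fold lower, as were 16.7% of genes without a match. In let-7 cells the level was 45.2, a log2 ratio of -0.40 over mock that was -0.09 among cells with 1 run and -1.80 among cells with 2 runs. In WT cells it was 29.3, and the log2 ratio of mock over WT, 1.03, crossed the 2-fold line under many alternatives, among them TMM factors (0.88), CPM (0.85) and the loss of V6.5_32 (0.84).

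Lef1 (ENSMUSG00000027985, chr3:131110471-131224356), a further activating partner of β-catenin, was sparse. Counts of it came from 34 of 60 mock, 38 of 58 miR-294, 33 of 48 let-7 and 11 of 16 WT cells. It ranged from 0 to 646 normalized counts in mock (median 0.938), to 283 in miR-294 (median 1.06), to 379 in let-7 (median 3.16) and to 57.2 in WT cells (median 5.66). The 3 highest mock cells held 77.6% of the summed normalized counts of that condition. The pooled level was 17.3 in mock, 15.1 in miR-294, 40.4 in let-7 and 15.0 in WT cells. The let-7 over mock log2 ratio of 1.22 (1.12 to 1.32) did not hold: it was 0.38 as a mean over cells, 0.34 by FPKM, 0.04 among cells with 1 run and 3.53 among cells with 2 runs, 0.63 after thinning, 0.89 without LET_7I_78 and 0.99 without LET_7I_90. The miR-294 over mock ratio of -0.20 turned from -0.90 among cells with 1 run to 1.25 among those with 2. Leaving out Mock_35 also turned it, to 0.22. Mock over WT was 0.21, but 1.27 as a mean over cells, 2.12 among cells with 1 run, -2.78 among cells with 2 runs, 1.69 with the first run, 1.22 after thinning, 0.89 without V6.5_32 and -0.21 without Mock_35. No direction is read from Lef1 in any comparison.

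Sp5 (ENSMUSG00000075304, chr2:70474923-70477729) encodes a zinc finger factor that is a direct Wnt target in many tissues. It was counted in 11 of 60 mock cells (18.3%, 9.52 to 30.4%), 14 of 58 miR-294 cells (24.1%, 13.9 to 37.2%), 23 of 48 let-7 cells (47.9%, 33.3 to 62.8%) and 0 of 16 WT cells, which allows a share of up to 18.8% (exact upper bound 20.6%). The share was lowest in WT and highest in let-7 cells, in 1 circuit each, and the difference was not tested. The highest cell had 40.04 normalized counts in mock, 50.4 in miR-294 and 150 in let-7 cells, where 6 cells exceeded the highest mock cell. After thinning to 500000 counts, Sp5 was counted in 8 mock, 10 miR-294 and 21 let-7 cells, so the order of the shares was kept.

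The pooled level of Sp5 was 1.61 (1.33 to 1.94) in mock, 3.58 (3.17 to 4.03) in miR-294 and 14.1 (13.1 to 15.2) in let-7 cells. In let-7 over mock cells it was 8.78-fold higher, a log2 ratio of 3.13 (2.84 to 3.43), which was 3.96 and 2.27 among cells with 1 and with 2 runs and 4.70 without Mock_11, which held 45% of the summed normalized counts of the mock cells. In miR-294 over mock cells the log2 ratio of 1.15 (0.83 to 1.48) was 0.77 after thinning, 0.56 without miRNA294_89, 0.81 without miRNA294_13 and 2.73 without Mock_11. In mock cells Sp5 was at least 9.94-fold higher than in WT cells at the floor of 3 counts, and at least 3.34-fold higher without Mock_11.

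Of 95 further pathway genes listed by role, 86 had a count in some cell and 45 passed the filter. In miR-294 over mock cells 13 were lower past 2-fold (28.9%, against 19.7% of all genes) and 3 were higher (6.67% against 6.22%), with a median log2 ratio of -0.53 against -0.26 for all genes. In let-7 over mock cells 5 were lower (11.1% against 9.28%) and 11 higher (24.4% against 18.8%), with a median of 0.003 against 0.19. In mock over WT cells 5 were lower (11.1% against 9.85%) and 15 higher (33.3% against 32%), with a median of 0.28 against 0.36. Apart from the lower genes in miR-294 and the higher genes in let-7 cells, these shares lay within 2 percentage points of those of all genes, and no share was tested. Of the 45 genes, 6 would miss the filter without the cells of a single condition (Fzd3, Ror2, Kremen1 and Dvl1 without let-7, Dkk3 without mock and Bcl9 without miR-294), so that their ratios were set in part by the filter. All 6 were past 2-fold in let-7 over mock cells, and Fzd3, Ror2, Kremen1 and Dvl1 were among the 11 higher genes there. The share of higher genes in let-7 cells is therefore not read as support. Nor is the share of lower genes in miR-294 cells. Those 13 genes include Dkk3, and also Fzd6 and Znrf3, which stood on the list of miR-294 targets used to select cells. Their number was 10 with TMM factors, 10 by FPKM and 9 with CPM.

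**Figure D5:**
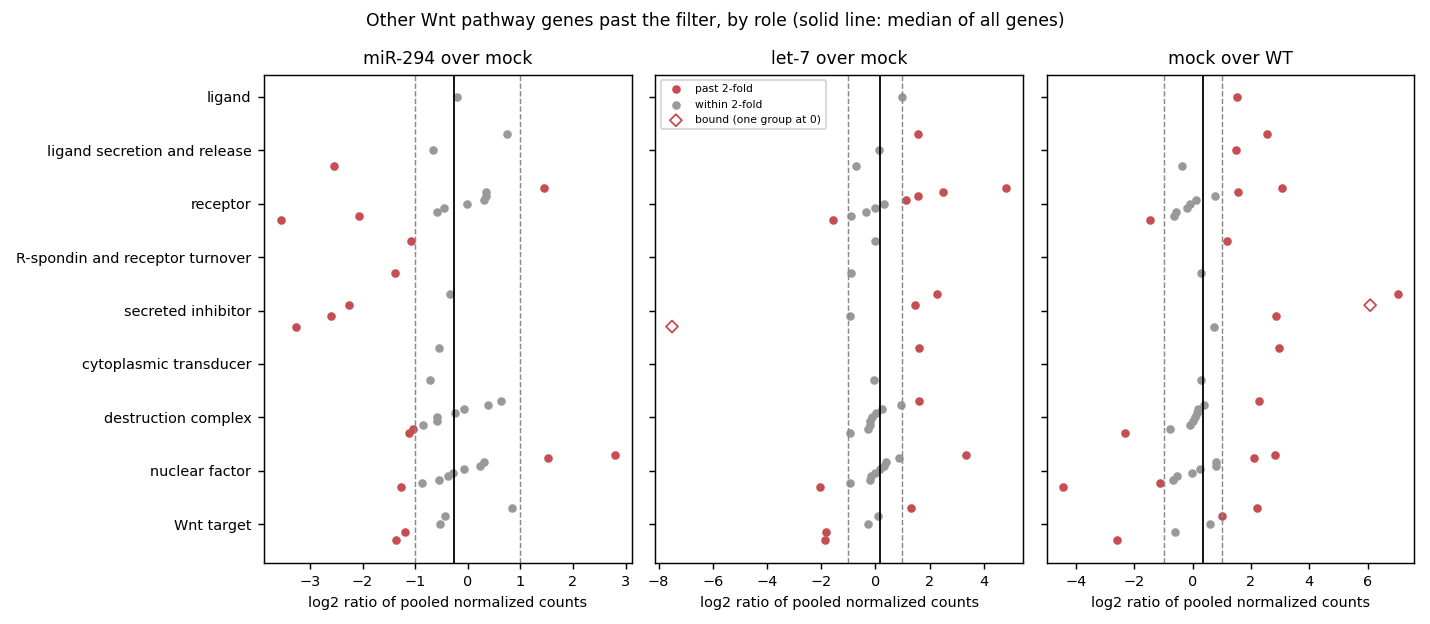
Log2 ratios (x axis) of the other Wnt pathway genes that passed the filter, in rows by role, with dashed lines at 2-fold, a solid line at the median of all genes and open diamonds for bounds. Past 2-fold lie 13 lower and 3 higher genes in miR-294 over mock, 5 and 11 in let-7 over mock, and 5 and 15 in mock over WT cells, of 45 each. Among all genes the shares were 19.7% and 6.22%, 9.28% and 18.8%, and 9.85% and 32%.

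At the level of ligand release, Wls, the carrier that brings Wnt proteins to the cell surface, had a level of 73.8 in mock, 12.7 in miR-294 (log2 ratio -2.54), 218 in let-7 (1.56) and 26.6 in WT cells (mock over WT 1.47). It was counted in 42 of 60 mock, 13 of 58 miR-294, 45 of 48 let-7 and 6 of 16 WT cells. Notum, which inactivates Wnt proteins by removing their lipid, was higher in mock than in WT cells (62.4 against 10.7, log2 ratio 2.54). The only ligand past the filter was Wnt5b, at 5.24 in mock and 1.84 in WT cells (1.51). Wnt5b was counted in 11 of 60 mock and 3 of 16 WT cells, with a median of 0 in both. Its highest mock cell held 193 normalized counts, so the ratio rests on few cells.

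Among receptors, Fzd6 had a level of 8.49 in mock, 0.722 in miR-294 (-3.56), 18.8 in let-7 (1.14) and 1.03 in WT cells (3.05). Fzd6 was counted in 16 of 60 mock, 5 of 58 miR-294, 27 of 48 let-7 and 2 of 16 WT cells. Its median was 0 in mock, miR-294 and WT cells, so these ratios rest on few cells. Fzd6 and Znrf3 stood on the list of miR-294 targets used to select cells, so their lower level in miR-294 cells is not independent of that selection. Fzd10 was 20.9 in mock and 4.96 in miR-294 cells (-2.08). Fzd3 was counted in 4 mock and 4 miR-294 cells, and its ratios (1.45 for miR-294 and 4.83 for let-7 over mock, 1.57 for mock over WT) rest on few cells. Lrp5, a co-receptor on which Dkk1 acts, was counted in all mock and let-7 cells, with a level of 46.6 and 15.8 (-1.56). The Wnt-binding kinases Ryk and Ror2 were higher in let-7 than in mock cells (79.9 against 26.5, log2 ratio 1.59, and 18.8 against 3.33, log2 ratio 2.50). Ror2 was counted in 14 of 48 let-7 and 11 of 60 mock cells, with a median of 0 in both. Ror2 and Fzd3 passed the filter only through let-7 cells, so their let-7 ratios are not read as support. Ryk was lower in mock than in WT cells (73.2 in WT, -1.46).

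Lgr4, an R-spondin receptor, and Znrf3, the ubiquitin ligase that removes Frizzled receptors, were both lower in miR-294 than in mock cells. The level of Lgr4 was 384 in mock and 147 in miR-294 cells (-1.38), and that of Znrf3 was 260 and 124 (-1.07). Lgr4 was also higher in mock than in WT cells (171 in WT, log2 ratio 1.17). Of the secreted inhibitors and their partners, Sfrp4 was 17.1 in mock, 3.57 in miR-294 (-2.26), 83.6 in let-7 (2.29) and 2.38 in WT cells (2.85). Sfrp4 was counted in 9 of 60 mock, 7 of 58 miR-294, 26 of 48 let-7 and 2 of 16 WT cells. Its median was 0 in mock, miR-294 and WT cells, and its highest mock cell held 380 normalized counts. The Sfrp4 ratios thus rest on few cells. Kremen1, a Dkk1 receptor, was 7.05, 0.735 (-3.26), 19.5 (1.47) and 0.0540 (7.03, from 1 positive WT cell) in the same order. Kremen1 was counted in 9 of 60 mock and 9 of 58 miR-294 cells, with a median of 0 in both. Kremen1 passed the filter only through let-7 cells, so its let-7 ratio is not read as support. Dkk3 was counted in 3 mock and 3 miR-294 cells (11 against 1.82, -2.60) and in no let-7 or WT cell, which makes it at least 181-fold lower in let-7 than in mock cells and at least 67.9-fold higher in mock than in WT cells. Dkk3 passed the filter only through mock cells, so these ratios are not read as support.

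In the cytoplasm, Dvl1, which relays the receptor signal, was 4.57 in mock, 13.8 in let-7 (1.60) and 0.594 in WT cells (2.94). Dvl1 was counted in 13 of 60 mock and 16 of 48 let-7 cells. It passed the filter only through let-7 cells, so its let-7 ratio is not read as support. Of the genes that act on the destruction complex, the tankyrase Tnks2, which marks Axin for degradation, was 280 in mock and 129 in miR-294 cells (-1.12), and Amer1 was 14.1 and 6.88 (-1.03). Amer1 was counted in 14 of 60 mock and 15 of 58 miR-294 cells, with a median of 0 in both. Its highest mock cell held 480 normalized counts, so the Amer1 ratio rests on few cells. Tnks was 18.44 in mock, 56.9 in let-7 (1.63) and 91.1 in WT cells (-2.30), and the kinase Csnk1e was 84.9 in mock and 17.4 in WT cells (2.28).

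Among nuclear genes, Tcf7l2, the fourth DNA-binding partner of β-catenin, was counted in 59 of 60 mock cells with a median of 200 normalized counts, in 54 of 58 miR-294 cells with a median of 76.8 and in 10 of 16 WT cells with a median of 16.4. Its level of 218 in mock, 90.5 in miR-294 and 30.4 in WT cells gave log2 ratios of -1.27 for miR-294 over mock and 2.84 for mock over WT. Ctnnbip1, an inhibitor of the contact between β-catenin and its partners, was 1.35 in mock, 9.44 in miR-294 (2.80), 13.8 in let-7 (3.35) and 29.3 in WT cells (-4.44). Counts of Ctnnbip1 came from 13 of 60 mock, 21 of 58 miR-294, 25 of 48 let-7 and 6 of 16 WT cells. Its median was 0 in mock, miR-294 and WT cells. The highest cell held 76.1 normalized counts in mock and 299 in WT, so the Ctnnbip1 ratios rest on few cells. The corepressor Tle3 was counted in 52 of 58 miR-294 and 31 of 60 mock cells (40.6 against 14.2, log2 ratio 1.52), and Tle1 was 26 in mock and 6.0 in WT cells (2.12). Bcl9, a coactivator, was lower in let-7 than in mock cells (1.58 against 6.5, -2.04), and Ctbp1 was lower in mock than in WT cells (7.57 against 16.6, -1.14). Tle1 was counted in 27 of 60 mock and 4 of 16 WT cells, and Ctbp1 in 22 and 6 of them. Bcl9 was counted in 8 of 48 let-7 and 19 of 60 mock cells. Each of Tle1, Ctbp1 and Bcl9 had a median of 0 in both conditions compared.

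Of the other target genes, Ccnd1, which encodes cyclin D1, had a level of 491 in mock, 216 in miR-294 (-1.19) and 106 in WT cells (2.21). Fgf4 was counted in 56 of 60 mock cells with a median of 149 normalized counts and in 21 of 48 let-7 cells (195 against 55, log2 ratio -1.82). Cdx1 was also lower in let-7 than in mock cells (4.29 against 15.7, -1.87). It was counted in 6 of 48 let-7 and 21 of 60 mock cells, with a median of 0 in both. Sp8, the near relative of Sp5, was 42.3 in mock, 16.3 in miR-294 (-1.37), 106 in let-7 (1.33) and 20.8 in WT cells (1.02). Counts of Sp8 came from 27 of 60 mock, 21 of 58 miR-294, 31 of 48 let-7 and 8 of 16 WT cells. Myc was 9.52 in mock and 58.1 in WT cells (-2.61). It was counted in 16 of 60 mock and 8 of 16 WT cells, with medians of 0 and 1.17. The highest WT cell held 419 normalized counts of Myc, so this ratio rests on few cells.

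Within a condition the 10 genes varied largely apart from each other. Over the 60 mock cells the 45 pairs of members had a median Spearman rho of 0.02, from -0.38 (Ctnnb1 and Axin2) to 0.44 (Axin2 and Sp5). The medians were -0.02 in miR-294, 0.01 in let-7 and -0.05 in WT cells, for the 36, 36 and 28 pairs that could be ranked, and the highest pair differed in each condition. Cells share depth and sparse counts, so these values are descriptions only. Among 10016 genes counted in at least 20% of the mock cells, those most like Dkk1 by Spearman rho were Gm17771 (0.50), Sall2 (0.49) and Unk (0.48), of which Sall2 and Unk were counted with Dkk1 in 6 of its 9 positive cells. Those most like Axin2 were Stx3 (0.55), Ccnt2 (0.53) and 1700025G04Rik (0.52).

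Genes annotated on the opposite strand overlap Ctnnb1, Axin1, Axin2, Apc, Gsk3b, Tcf7, Tcf7l1 and Lef1, and genes on the same strand overlap Ctnnb1, Gsk3b, Tcf7, Tcf7l1 and Lef1. These overlaps are of whole gene spans, introns included, and overlap of exons was not examined. The library kit does not keep strand, so strand cannot separate reads from a stretch that a member shares with such a partner. Dkk1 and Sp5 have no overlapping gene.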

How the data were processed

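Single-cell libraries were made on Fluidigm C1 circuits with the Nextera XT kit. Per run, the authors deposited RSEM 1.2.19 output on Gencode M4 genes: raw expected counts, and FPKM values that are scaled by gene length and depth. They left out shallow or simple libraries and a few miR-294 and let-7 cells without lower target levels, so the mimic cells were selected on a measured outcome.

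Here the expected counts of 232 runs were summed over the runs of each of 182 cells (50 cells had 2 runs), rounded to whole numbers and scaled by DESeq size factors over 862 genes counted in every cell. FPKM was averaged over runs weighted by depth. Total counts per cell ranged from 513521 to 3979274. Ratios of pooled levels carry exact conditional 95% counting intervals, shares of cells exact binomial (Clopper-Pearson) ones, and a condition with no counts was set to a floor of 3 counts over the condition. A gene was called past 2-fold at a mean count of at least 5. With 1 circuit per condition and no separate cultures named, no p-value was computed.

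The 10 members and the lists of pathway genes and markers were chosen with earlier results of these data known. All 10 members were named. Of the other pathway genes, those past 2-fold and past the filter in a comparison were named, and for Dkk1 and Axin2 the 3 genes with the highest Spearman rho over the mock cells. Symbols came from a gene name table (41674 of 42493 identifiers matched). Loci and 3′ UTRs came from Gencode M21, a later release of the same build, GRCm38. The alternatives were TMM factors (edgeR 4.0.16), CPM, means over cells, FPKM, no filter, cells with 1 or 2 runs, the first run, leaving out each cell, leaving out 3 cells with another title style, 1 cell of each alike pair, thinning to 500000 counts and, chosen after seeing the data, leaving out the 2 cells whose runs differed. Analyses used Python 3.11.15, scipy 1.17.1 and R 4.3.3.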

Additional observations from a re-analysis of the deposited data

How the results depend on the processing

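Of 327 ratios of a member under an alternative, 314 kept their direction, 307 kept their side of the 2-fold line and 286 moved by less than 1.5 times. No paired analysis was possible because the numbers shared between labels mark sequencing runs of a cell or cell numbers, not replicates shared between conditions, and no result came from a test. In miR-294 over mock cells, CPM gave 0 members lower and no filter 2 lower, cells with 2 runs gave 2 members higher and thinning 0 higher, and leaving out each cell gave 0 to 1 higher. No filter gave 26 pathway genes lower and 12 higher. In let-7 over mock cells, no filter gave 2 members lower and cells with 2 runs 3 lower. Members higher were 1 as a mean over cells, by FPKM, in cells with 1 run, with the first run and after thinning, and 1 to 2 when each cell was left out. Pathway genes lower were 9 with TMM factors, 8 with CPM, 12 without a filter and 12 in cells with 2 runs, and those higher were 28 without a filter and 7 in cells with 2 runs. In mock over WT cells, cells with 2 runs gave 1 member lower, and pathway genes lower were 14 without a filter, 3 in cells with 1 run, 9 in cells with 2 runs, 3 with the first run and 3 without the 2 cells whose runs differed, an alternative chosen after seeing the data. Those higher were 28 without a filter and 25 in cells with 2 runs. The cause of these changes was not tested, except that no filter adds genes and cells with 2 runs leave only 2 WT cells. Low counts limit Dkk1, Sp5, Axin2 and Lef1, and 1 circuit per condition limits every ratio.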

Other observations

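β-catenin also works at cell junctions, where it ties E-cadherin to the α-catenin that binds actin. The levels of 4 genes of that junction are given here. Jup, which encodes plakoglobin, the near relative of β-catenin, had a level of 263 normalized counts per cell in mock, 101 in miR-294, 244 in let-7 and 68.97 in WT cells. Cdh1, which encodes E-cadherin, was at 741, 426, 609 and 668 in the same order. Ctnna1 was at 561, 421, 673 and 565, and Ctnnd1, which encodes p120-catenin, at 193, 134, 175 and 249. Jup was the only gene of these 4 that differed by more than 2-fold between mock and miR-294 or between mock and WT cells. Of all genes past the filter, 19.7% were lower in miR-294 than in mock cells and 32% were higher in mock than in WT cells. With 4 genes, a single one past 2-fold is near those shares and is not read as a result about the junction. As for the other genes, a condition is 1 circuit, so these values have no replicate check.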
